A study of Homo sapiens with 6 samples.

Results

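The 84 genes described here encode zinc finger proteins and lie outside chromosome 19. They were chosen by name and position: protein coding genes of the deposited table, on any chromosome but 19, whose symbol starts with ZNF, ZSCAN, ZKSCAN, ZFP or ZBTB followed by a number. They are 84 of the 5681 genes of the table and 24.6% of the 342 such genes in GENCODE version 29. No expression value entered the choice. The table itself, however, lists only genes that differed by at least 2-fold between the groups, so each member had already passed a test on these libraries.

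The libraries were made from HT-29, an established line of human colorectal adenocarcinoma cells, in 2 groups of 3. The control group carried a Scramble hairpin (libraries 1 to 3) and the other group carried shOGT, a hairpin that depletes OGT (libraries 4 to 6). OGT is the enzyme that attaches O-linked N-acetylglucosamine to nuclear and cytoplasmic proteins. Both groups thus share the cell line, and no untransduced cells were analysed here. The labels do not say whether the 3 libraries of a group came from separate cultures, so the p-values measure only the spread between these libraries, which may be technical.

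C2H2 zinc finger proteins form the largest family of human transcription factors. Each finger holds a zinc ion between a pair of cysteines and a pair of histidines, and tandem fingers read DNA. Many members carry a further domain: the KRAB box, which recruits the corepressor TRIM28 and silences transposable elements, the SCAN domain, which lets proteins pair, or the BTB domain of the ZBTB proteins, which pairs proteins and recruits corepressor complexes. Chromosome 19 holds the densest clusters of KRAB genes, and the genes outside it include many older, more widely conserved factors. Among the 84 members, 25 encoded a KRAB box, 6 a SCAN domain and 12 were ZBTB genes. A further 38 held C2H2 fingers and fell in none of these groups, and 3 held none of these domains and no C2H2 repeat that the search found. Other domains were not searched for. The KRAB member ZNF487 had no such repeat either, which makes 4 members without one.

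The first fingers of 5 members are shown to let the fold itself be seen, since these genes carry much of what follows. Capitals mark the codons of the zinc-binding cysteines and histidines, and the sequences are coding strand bases of GENCODE transcripts on GRCh38.
ZNF664, chr12:124012157-124012219, plus strand, exon 6 of 6: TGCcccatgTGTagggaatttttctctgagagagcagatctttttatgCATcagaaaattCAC
ZNF778, chr16:89227387-89227449, plus strand, exon 7 of 7: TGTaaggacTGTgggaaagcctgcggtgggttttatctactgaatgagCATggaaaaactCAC
ZBTB22, chr6:33315312-33315374, minus strand, exon 2 of 2: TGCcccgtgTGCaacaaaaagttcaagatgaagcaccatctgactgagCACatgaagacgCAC
ZBTB33, chrX:120254901-120254963, plus strand, exon 2 of 2: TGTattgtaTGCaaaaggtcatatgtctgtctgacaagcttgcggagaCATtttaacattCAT
ZNF622, chr5:16465582-16465650, minus strand, exon 1 of 6: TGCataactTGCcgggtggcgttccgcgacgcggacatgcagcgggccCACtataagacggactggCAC
The finger of ZNF622 spans 69 bases and the other 4 span 63 bases, because more residues separate its histidines.

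The labels were checked on the targeted gene. OGT stood at 9628, 11638 and 11619.5 normalized counts in the Scramble libraries and at 484, 621 and 537 in the shOGT libraries, so shOGT retained 4.99% of the Scramble mean. Its log2 fold change was −4.32 (SE 0.11, limma adjusted p = 1.59e-12), and the exact two-sided permutation test over the 6 libraries gave p = 0.1, the smallest p that 3 against 3 allows. Table genes received 4145921 to 4504303 reads in each Scramble library and 3302558 to 3471647 in each shOGT library. Of the colon epithelial markers, 5 of 15 were in the table, where KRT20, KRT19 and CDH17 were higher and LGALS4 and VIL1 were lower. Markers of other cell types gave 2 of 10: the endothelial gene PECAM1 at 42.3 to 51.4 normalized counts in Scramble and 129 to 200 in shOGT, and the monocyte gene CD14 at 5.41 to 13.3 and 20.4 to 41.0. The other 8 were not among the listed genes. The part of PECAM1 and CD14 transcripts in the results was not tested.

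Zinc finger genes moved in both directions in near-equal numbers. By limma on log2(normalized count + 1), with an absolute log2 fold change over 1 and a Benjamini-Hochberg adjusted p under 0.05 over the 5671 genes tested, 39 members were higher in shOGT and 44 were lower. All 84 passed the filter on low values. Some, such as ZNF512B, reached 1 normalized count in shOGT libraries only, so they passed through the group where they were higher. ZFP57, ZNF462 and ZNF469 also fell short of the filter in Scramble, and ZNF705E fell short of it in shOGT. Of all tested genes 52.2% were called higher and 47.2% lower, 99.4% in either direction, and 99.5% had groups that did not overlap. These shares are near-total because of how the table was made, so the number of members called and the absence of overlap in all 84 carry no information. For the same reason, the adjusted p-values given for single members add no support to their differences. The one member not called was ZNF707, at 208, 237 and 236 normalized counts in Scramble and 528, 428 and 406 in shOGT (log2 fold change 0.99, SE 0.13). It is named here after its values were seen. The split by direction depended on scaling. With size factors from the median of ratios over the listed genes, 40 members were higher and 18 lower, and no member changed direction. That scaling takes the typical listed gene as unchanged, although genes were listed for differing by at least 2-fold. With edgeR and its own scaling, 39 members were higher and 44 lower. The listed genes alone cannot settle which scaling is right. In these bulk libraries, fewer cells expressing a gene and less RNA of it per cell cannot be told apart.

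The median log2 fold change of the members was −1.02, with a range from −4.90 to 4.01 and only ZNF707 between −1 and 1. Because the table leaves out smaller changes, a median close to −1 or 1 mainly shows which direction was more common in a set. Over all tested genes the median was 1.05, and over the 4129 protein coding genes of the table it was −1.11, of which 42.3% were higher against 46.4% of the members. Changes over 4-fold were found in 9 members in each direction, 10.7% each, beside 14.8% each for protein coding genes. The members took 1.0% to 1.02% of the reads of the table genes in Scramble and 1.02% to 1.09% in shOGT. Among the 79 members with a mean of at least 10 normalized counts, the median coefficient of variation between replicates was 9.98% in Scramble and 13.7% in shOGT.

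**Figure D1:**
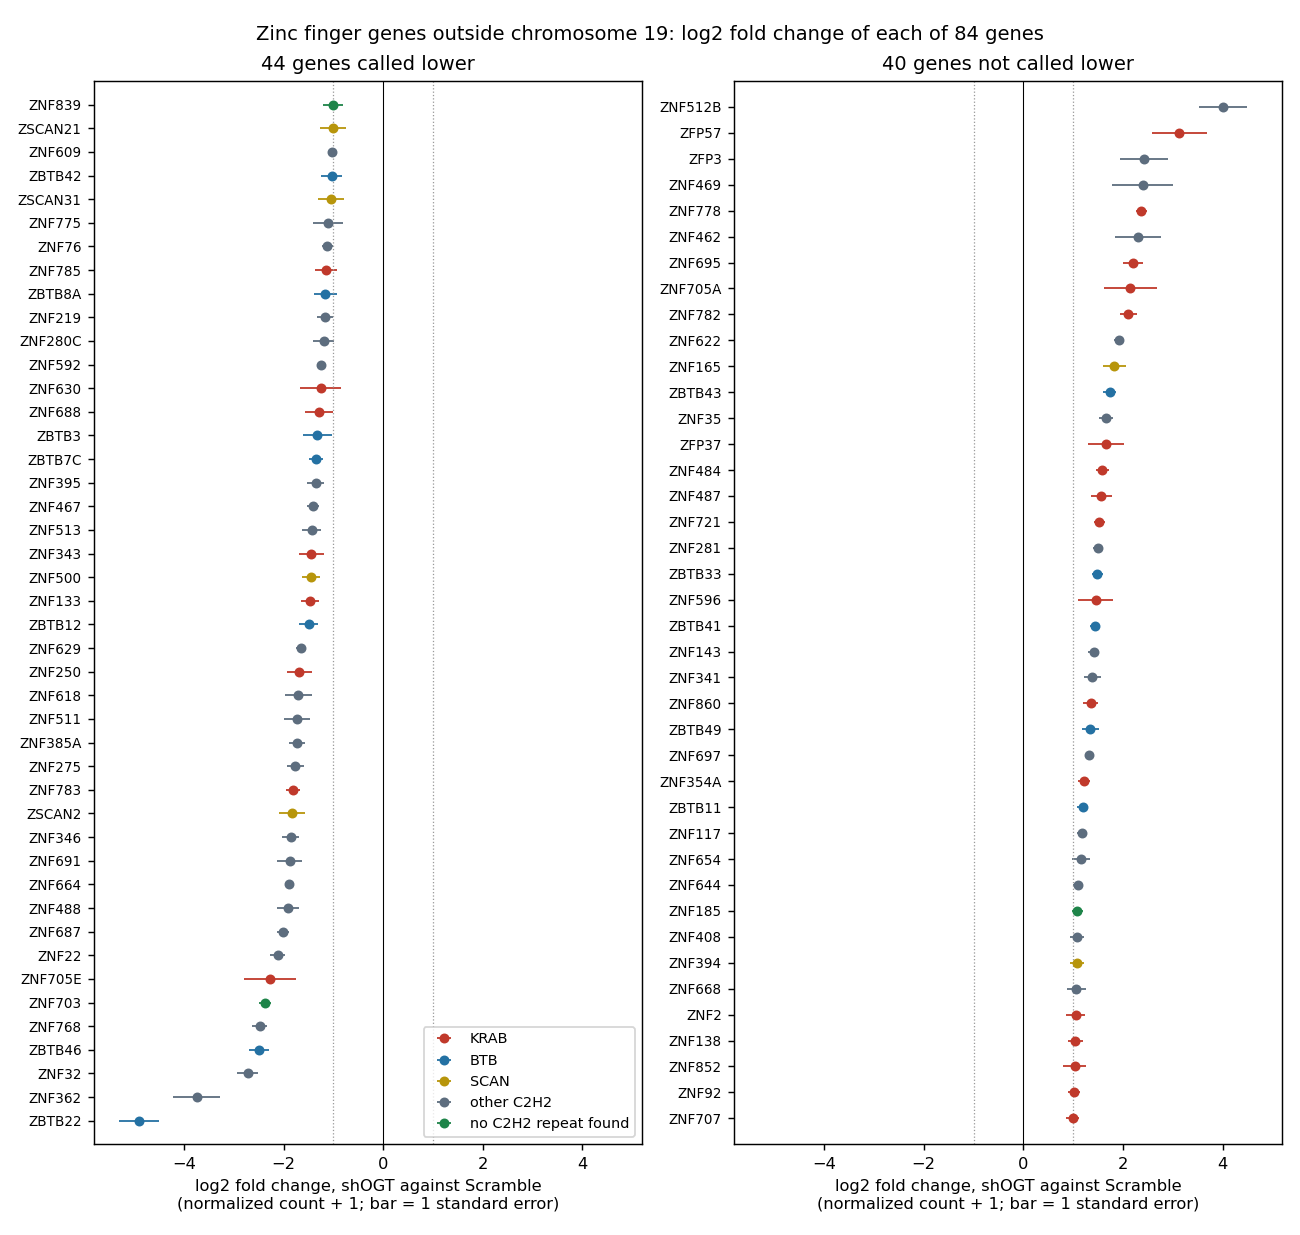
Log2 fold change of each of the 84 genes in shOGT against Scramble, on log2(normalized count + 1), with bars of 1 standard error and colours for the class of the encoded protein. The left panel holds the 44 genes called lower, down to ZBTB22 at −4.90, and the right panel the other 40, up to ZNF512B at 4.01; dotted lines mark −1 and 1.

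Of the 25 KRAB genes 16 were higher (64.0%) and 8 lower, beside 52.2% higher over all tested genes. Both sets had a median log2 fold change of 1.05, just past the 2-fold limit of the table, so this likeness carries no information. Of the protein coding genes in the table, 42.3% were higher. ZNF778 (ENSG00000170100, chromosome 16 from 89217703 to 89237071, 13 fingers) stood at 330, 305 and 274 normalized counts in Scramble and at 1442, 1701 and 1554 in shOGT. Its groups were far apart, and the rise was 5.16-fold (log2 fold change 2.37, SE 0.11, limma adjusted p = 1.45e-10). ZNF695 measured 39.0, 65.8 and 47.9 against 231, 232 and 234 (4.57-fold, log2 fold change 2.20, SE 0.21, limma adjusted p = 1.51e-07). It shares 19.5% of its exon bases with the readthrough transcript ZNF670-ZNF695, so reads there could belong to either. ZNF782 measured 60.3, 64.9 and 60.7 against 304, 268 and 242 (4.38-fold, log2 fold change 2.11, SE 0.17, limma adjusted p = 2.70e-08).

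Among the KRAB genes that were lower, ZNF783 fell from 584, 573 and 459 normalized counts in Scramble to 171, 151 and 134 in shOGT (log2 fold change −1.82, SE 0.14, limma adjusted p = 2.16e-08). It shares 29.5% of its exon bases with a second gene on the same strand. ZNF250 and ZNF133 had log2 fold changes of −1.68 (SE 0.25) and −1.47 (SE 0.19). All 3 kept their direction with median-of-ratios scaling, where ZNF250 at −0.97 and ZNF133 at −0.76 no longer passed 2-fold.

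A KRAB gene with a known role was barely detected. ZFP57, which keeps DNA methylation at imprinted loci, gave 0, 2.70 and 0 normalized counts in Scramble and 17.9, 9.64 and 11.4 in shOGT. That is 3 reads against 36, a ratio of 14.4 with an exact 95% interval of 4.56 to 73.3 that covers counting error only. The 3 Scramble reads lay in library 2, without which the log2 fold change rose from 3.13 to 3.76. ZFP57 therefore passed the filter on low values only with shOGT libraries. ZNF705A and ZNF705E, near-identical copies named after their values were seen, moved oppositely at very low counts. ZNF705A had 0 reads in Scramble and 11 in shOGT, or 4.41-fold more against a floor of 3 reads over the group. That figure leaves out the counting error of the 11 reads, and ZNF705A passed the filter on low values through shOGT alone. ZNF705E had 19 and 1, a ratio of Scramble to shOGT of 15.8 (interval 2.51 to 656), and passed the filter only with Scramble libraries. Stretches of 75 bases shared with relatives made up 42.0% of the first and 31.1% of the second, so their assignment is uncertain.

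Transcripts of the proteins through which KRAB zinc fingers act were lower where listed, and protein was not measured. Of 26 genes of that machinery in a list fixed with earlier results known, 6 were listed in the table, each of them lower, with a median log2 fold change of −1.54. Over all tested genes the median was 1.05 and 47.2% were lower, and over the protein coding genes of the table, which these 6 are, it was −1.11 and 57.1% were lower. DNMT3B, a de novo DNA methyltransferase, stood at 248 to 254 normalized counts in Scramble and 53.7 to 66.0 in shOGT. CBX1, a heterochromatin protein that reads methylated histone H3, stood at 1991 to 2192 and 559 to 581. The others were the histone methyltransferase SUV39H1 (−1.65), the DNA methylation factor UHRF1 (−1.43), the SETDB1 partner ATF7IP (−1.26) and the HUSH subunit FAM208A (−1.03). TRIM28 and SETDB1, the core of this machinery, were not among the listed genes. Median-of-ratios scaling raised the median over all genes by 0.71. Values under it are not reported for the genes of this or the other lists, so their smaller falls may rest on scaling.

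**Figure D2:**
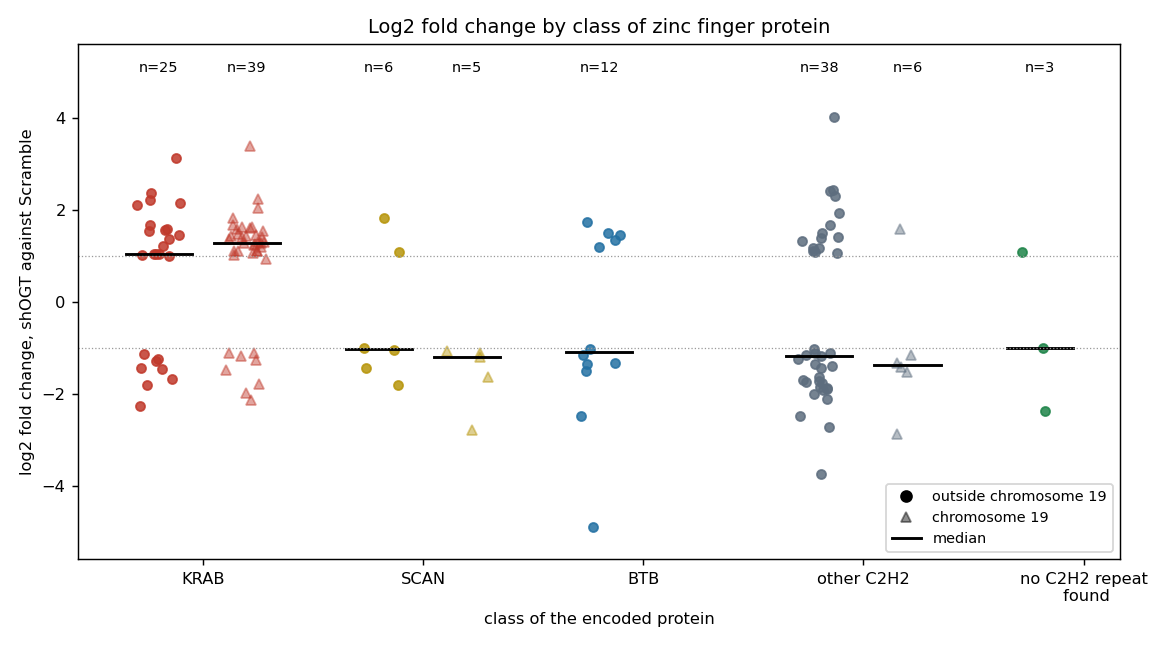
Log2 fold change in shOGT against Scramble by class of zinc finger protein, with circles for genes outside chromosome 19, triangles for chromosome 19 and black lines for medians. KRAB genes sit mostly above 0 at both locations (medians 1.05 and 1.28), and the empty band between −1 and 1 reflects the 2-fold limit of the table.

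The ZBTB genes divided into 5 higher (41.7%) and 7 lower, with a median of −1.10. Both values lie near the 42.3% higher and −1.11 of the protein coding genes of the table. ZBTB22 (ENSG00000236104, chromosome 6 from 33314406 to 33317942) had the lowest log2 fold change of the 84. It stood at 372, 297 and 308 normalized counts in Scramble and at 8.42, 23.6 and 4.55 in shOGT, which retained 3.74% of the mean. The log2 fold change was −4.90 (SE 0.41, limma adjusted p = 4.36e-08) and moved to −5.49 without shOGT library 5, the highest of its group. ZBTB46, a factor known from classical dendritic cells, fell from 363, 266 and 280 to 65.3, 40.7 and 54.6 normalized counts (log2 fold change −2.49, SE 0.21, limma adjusted p = 4.00e-08). ZBTB12 and ZBTB7C followed at −1.50 (SE 0.19) and −1.35 (SE 0.14), and at −0.79 and −0.64 with median-of-ratios scaling, where both lost the call.

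Of the higher ZBTB genes, 4 are described here. ZBTB33 (ENSG00000177485, chromosome X from 120250752 to 120258398) encodes Kaiso, which binds methylated CpG and the p120 catenin. It stood at 901, 1058 and 997 normalized counts in Scramble and at 2370, 3015 and 2909 in shOGT (2.81-fold, log2 fold change 1.48, SE 0.11, limma adjusted p = 8.87e-09). ZBTB41 measured 832, 977 and 937 against 2170, 2782 and 2522 (log2 fold change 1.44, SE 0.10, limma adjusted p = 1.17e-08). ZBTB43 rose from 237, 326 and 249 to 839, 975 and 866 (3.30-fold, log2 fold change 1.73, SE 0.13, limma adjusted p = 1.57e-08). ZBTB11, a factor needed for neutrophil development, rose 2.29-fold (log2 fold change 1.19, SE 0.11). Their levels, as means over the 6 libraries, were 353 (ZBTB33), 215 (ZBTB11), 199 (ZBTB41) and 82.5 (ZBTB43) normalized counts per kb of gene model. In these 4 genes, shOGT library 4 was the lowest of its group and still lay above every Scramble library.

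Of 19 corepressors and partners of BTB proteins in a list chosen with earlier results known, 6 were in the table, 4 of them lower, with a median log2 fold change of −1.13, which is near the 57.1% and −1.11 of the protein coding genes of the table. HDAC1, a histone deacetylase, stood at 3826 to 4040 normalized counts in Scramble and 1206 to 1267 in shOGT (log2 fold change −1.66, SE 0.08), and SIN3A, the scaffold of the SIN3 complex, had −1.19, with GPS2 at −1.26 and MYC at −1.07. The paper's own quantitative PCR in this cell line did not find MYC mRNA significantly decreased by OGT depletion, and the measures were not compared here. CUL3, the ubiquitin ligase scaffold that BTB proteins bind, was higher at 1.16, and so was the BTB zinc finger repressor BCL6 at 1.04.

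The SCAN genes were 2 higher (33.3%) and 4 lower, beside 42.3% higher among the protein coding genes of the table, and are too few to compare. ZNF165, known as a cancer-testis antigen, measured 85.1, 82.9 and 81.9 normalized counts in Scramble and 386, 361 and 189 in shOGT (3.75-fold, log2 fold change 1.82, SE 0.23, limma adjusted p = 3.23e-06). The shOGT library 6 lay far below the other two and above all Scramble libraries. ZNF394 had a log2 fold change of 1.08 (SE 0.14), or 0.95 without Scramble library 3, which was the lowest of its group. Among those lower, ZSCAN2 stood at 160, 132 and 150 against 62.1, 34.3 and 31.9 (log2 fold change −1.82, SE 0.26) and ZNF500 had −1.44 (SE 0.18). ZSCAN31 at −1.05 and ZSCAN21 at −1.0 lay at the 2-fold limit. ZSCAN31 moved to −0.96 without Scramble library 2 and to −0.89 without shOGT library 6. ZSCAN21 moved to −0.94 without Scramble library 3 and to −0.82 without shOGT library 5, and 41.1% of its exon bases lie opposite exons of ZNF3. With median-of-ratios scaling ZSCAN31 was −0.34 (limma adjusted p = 0.185), ZSCAN21 −0.30 (limma adjusted p = 0.278) and ZNF500 −0.73, so all 3 lost the call.

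The 38 genes with C2H2 fingers and no KRAB, SCAN or ZBTB assignment were 15 higher (39.5%) and 23 lower, with a median of −1.18. Both values lie near the 42.3% higher and −1.11 of the protein coding genes of the table. ZNF664 and ZNF609, with means of 592 and 353 normalized counts per kb, were among those that fell. ZNF664 (ENSG00000179195, chromosome 12 from 123971845 to 124015439) stood at 5626, 6238 and 5881 normalized counts in Scramble and at 1543, 1671 and 1550 in shOGT, which retained 26.8% (log2 fold change −1.90, SE 0.08, limma adjusted p = 1.07e-10). ZNF609, a gene also known as the source of a circular RNA, fell from 5785, 5791 and 5665 to 2810, 2837 and 2795 normalized counts. Its replicates were tight and its fold was at the limit of the table (log2 fold change −1.03, SE 0.08, limma adjusted p = 1.39e-08). With median-of-ratios scaling it was −0.31.

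ZNF592 and ZNF687, the second named after its values were seen, belong to one chromatin complex with ZMYND8, and both were lower, although with median-of-ratios scaling ZNF592 was −0.52 and lost the call while ZNF687 was −1.29 and kept it. ZNF592 stood at 2775, 2924 and 2585 against 1106, 1194 and 1202 normalized counts (log2 fold change −1.24, SE 0.09), and ZNF687 at 1124, 1040 and 945 against 296, 238 and 240 (log2 fold change −2.01, SE 0.12). The steepest falls of this class were in ZNF362 and ZNF32. ZNF362 measured 192, 120 and 117 normalized counts in Scramble and 23.2, 9.64 and 3.41 in shOGT (log2 fold change −3.75, SE 0.48, limma adjusted p = 4.09e-06). The shOGT libraries differed widely among themselves, and the value was −4.35 without library 4 and −3.13 without library 6. ZNF32 measured 294, 298 and 334 against 56.8, 33.2 and 51.2 (log2 fold change −2.72, SE 0.21, limma adjusted p = 1.94e-08). Its antisense partner ZNF32-AS2 was also lower, at −2.27, and 38.6% of the exon bases of ZNF32 lie opposite antisense exons. The counting was not stated to use strand, so reads of the pair cannot be told apart. ZNF395, a factor induced by hypoxia, had −1.36 (SE 0.17), or −0.65 with median-of-ratios scaling, and shares 34.9% of its exon bases with FBXO16 on the same strand, itself at −1.59.

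Rises in this class included general factors. ZNF622 (ENSG00000173545, chromosome 5 from 16451519 to 16465792), which acts in the maturation of the large ribosomal subunit, stood at 630, 661 and 592 normalized counts in Scramble and at 2254, 2265 and 2637 in shOGT. The rise was 3.80-fold (log2 fold change 1.92, SE 0.10, limma adjusted p = 3.14e-10). At 887 normalized counts per kb of gene model it was also the member with the highest level per length, beside a median of 51.3 over the 79 members with a mean of at least 10. ZNF281, a GC-rich element binding repressor, rose from 829, 805 and 795 to 2055, 2304 and 2522 normalized counts (2.83-fold, log2 fold change 1.50, SE 0.09). ZNF143, an activator of small nuclear RNA genes and of many promoters, rose from 210, 204 and 216 to 532, 533 and 617 (2.67-fold, log2 fold change 1.41, SE 0.12, limma adjusted p = 4.01e-08). ZNF644, a partner of the G9a histone methyltransferase, rose 2.14-fold (log2 fold change 1.10, SE 0.10).

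The highest log2 fold change of all, 4.01 (SE 0.48, limma adjusted p = 1.94e-06), belonged to ZNF512B, a gene close to the detection limit. It gave 0.887, 0 and 0 normalized counts in Scramble and 26.3, 11.8 and 21.6 in shOGT. That is 1 read against 55, a ratio of 66.2 with an exact 95% interval of 11.4 to 2661. No Scramble library reached 1 normalized count, so ZNF512B passed the filter on low values through shOGT alone. Its p-value, like those of the other members, adds no support to the difference. ZNF469, the gene of brittle cornea syndrome, gave 0.887, 2.70 and 2.76 against 29.5, 4.28 and 22.8 (log2 fold change 2.40, SE 0.61, limma adjusted p = 0.00171). Without shOGT library 5, the lowest of its group, it was 3.18, without shOGT library 4 it was 1.91 and without Scramble library 1 it was 2.07. An ordinary linear model gave an adjusted p of 0.0502. ZNF462, a gene of a developmental disorder, rose from 0.887, 1.80 and 2.76 to 8.42, 15.0 and 14.8. In ZNF469 and ZNF462, Scramble library 1 stayed under 1 normalized count, so both passed the filter on low values only with shOGT libraries. ZFP3, named after its values were seen, had 0 reads in Scramble and 13 in shOGT, or 5.21-fold more against a floor of 3 reads. That figure leaves out the counting error of the 13 reads. ZFP3 also passed the filter on low values through shOGT alone.

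**Figure D3:**
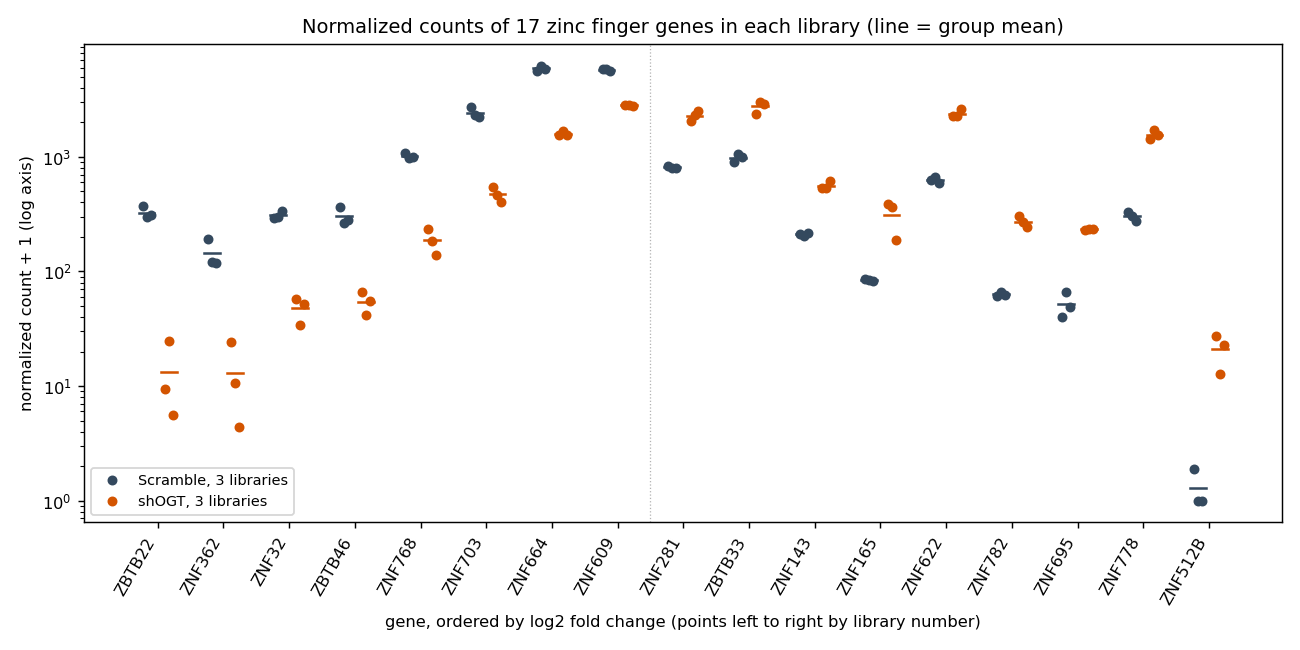
Normalized count + 1 (log axis) of 17 zinc finger genes in each of the 3 Scramble and 3 shOGT libraries, with lines at group means. The 8 genes left of the dotted line are lower in all 3 shOGT libraries, the 9 to its right are higher, and ZBTB22, ZNF362 and ZNF165 show a wide spread within shOGT.

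The 3 members of no other class, without a C2H2 repeat found, were ZNF703, ZNF839 and ZNF185. ZNF703, a corepressor amplified in luminal breast cancer, fell from 2749, 2324 and 2235 normalized counts to 549, 462 and 403 (log2 fold change −2.37, SE 0.12, limma adjusted p = 3.79e-10). ZNF839 had −1.0 (SE 0.20), at the 2-fold limit, and was −0.95 without Scramble library 1, −0.92 without shOGT library 5 and −0.29 with median-of-ratios scaling. ZNF185, a LIM domain protein of the actin cytoskeleton despite its name, rose from 289, 262 and 271 to 588, 581 and 578 (2.12-fold, log2 fold change 1.08, SE 0.11).

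Among the members, the share that was higher differed with the number of fingers and with base composition. Of 29 members with 10 or more fingers 19 were higher and 10 lower, and of 51 with 1 to 9 fingers 18 were higher and 32 lower. Transcript GC content had a median of 42.6% in the members that were higher (quartiles 40.2% and 50.3%) and of 55.6% in those that were lower (50.5% and 59.1%). Below 45% GC, 23 of 29 members were higher (79.3%), beside 62.1% of the 1195 protein coding genes of the table in that range. At 55% GC or more, 5 of 29 were higher (17.2%), beside 27.0% of 1665. KRAB genes and the other classes both followed this order. Below 45% GC, 12 of 14 KRAB genes and 11 of 15 others were higher, and at or above it 4 of 11 and 12 of 44 were. The zinc finger genes of chromosome 19, of which 31 of 50 were higher and 18 lower, had 32 KRAB genes and 2 others below 45% GC. Of these, 26 KRAB genes and 1 other were higher. At or above 45% GC on chromosome 19, 4 of 7 KRAB genes and 0 of 9 others were higher, so direction there differed by class as well. Protein coding genes of the table showed the same order with GC content, with medians of 46.8% among the higher and 55.3% among the lower genes, and the part of base composition in the directions was not tested.

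**Figure D4:**
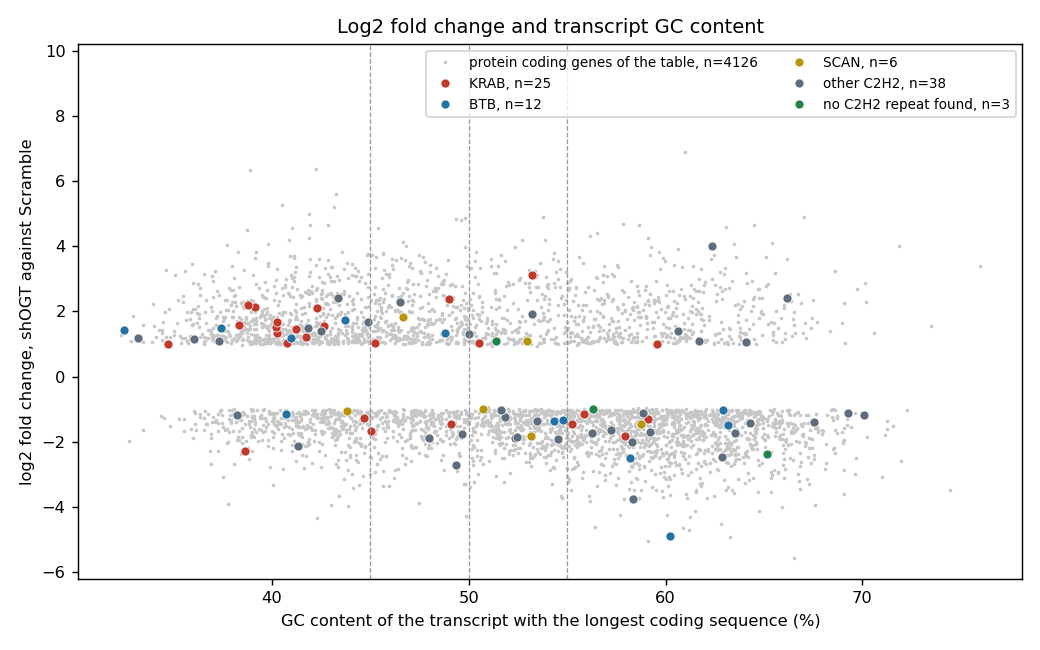
Log2 fold change in shOGT against Scramble and GC content (%) of the transcript with the longest coding sequence, for the 84 zinc finger genes by class (large points) and for the protein coding genes of the table (grey). Dashed lines at 45%, 50% and 55% bound the ranges counted in the text; the zinc finger genes below 45% lie mostly above 0, and those at 55% or more mostly below it.

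By chromosome, all 5 members on chromosome 3 and both on chromosome 4 were higher, as were 5 of 6 on chromosome 9. All 3 on chromosome 14 and all 3 on chromosome 15 were lower, as were 4 of 5 on chromosome 10. The other chromosomes held both directions or a single member, such as 4 higher and 4 lower on chromosome 7 and 5 and 4 on chromosome 1. A chromosome held 1 to 9 members, and of all 84 members 46.4% were higher and 52.4% lower. Shares over all genes of each chromosome were not computed, so these counts are a description only. Within 200 kb of one another lay 14 members, forming 9 pairs, of which 7 had both genes called the same way. The pairs are not independent, since ZNF768, ZNF688, ZNF785 and ZNF629 on chromosome 16 form several of the 7 among themselves. The share of like calls among members farther apart was not computed, and shared control of neighbours was not tested. A cluster on chromosome 16 held ZNF768, ZNF688 and ZNF785, all lower. ZNF768 (ENSG00000169957, from 30524001 to 30526821), which binds conserved MIR repeats, stood at 1079, 967 and 1001 normalized counts in Scramble and 233, 184 and 139 in shOGT (log2 fold change −2.48, SE 0.16, limma adjusted p = 2.82e-09). ZNF688 and ZNF785, 1.01 kb apart, had −1.29 (SE 0.28) and −1.14 (SE 0.22), and with median-of-ratios scaling they were −0.59 and −0.43. ZNF629, 193 kb from ZNF785, was lower too at −1.64. The 2 pairs that parted were ZNF32 (−2.72) with ZNF487 (1.57) and ZBTB46 (−2.49) with ZNF512B (4.01). ZNF629 and ZNF487 are named after their values were seen.

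Antisense overlap touched 29 members, over 20% of the exon bases in 9 of them. ZNF22 and ZNF668 were chosen for that overlap after their values were seen. ZNF22 measured 314, 374 and 344 normalized counts in Scramble and 70.5, 78.2 and 86.5 in shOGT, while C10orf25 on the other strand went from 23.9 to 27.9 in Scramble to 70.6 to 87.8 in shOGT (log2 fold changes −2.12 and 1.54). ZNF668 was higher at 1.06, with 36.5% of its exon bases opposite AC135050.1, which was higher at 2.65.

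Promoter windows were compared because the members moved in both directions. RefSeq (GRCh38.p14) gave windows for 65 members, 83 windows in all, of which the 250 bases before each start were searched on both strands. The ETS core CCGGAAG was in 13 of 37 windows of members that were higher (35.1%) and in 6 of 46 of those that were lower (13%). It was in 8.52% of all 35116 windows, and in 10.1% and 10.4% of those of protein coding genes of the table called higher and lower. The SP/KLF core GGGCGGG was in 35.1% and 50.0% of the members' windows and in 38.6% and 54.3% of those of the protein coding genes. The other cores searched were NRF1 (GCATGCGC), YY1 (AAGATGGC), ZNF143 (ACTACAA), Kaiso (TCCTGCNA), the E-box (CACGTG), CRE (TGACGTCA) and the CCAAT box (CCAATNA). The CCAAT box was in 21.6% and 19.6% of the windows of higher and lower members, beside 13.2% of all windows and 10.6% and 19.2% of those of the protein coding genes called higher and lower, and each of the rest was in at most 3 windows of either set. The median number of CpG was 19 and 18 a window. Windows of a gene overlap where its starts are close, and a match is a run of letters, not a bound site.

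The 120 bases before the start are shown for 3 members that were higher and 3 that were lower. Capitals mark ETS (CCGGAAG or its reverse complement CTTCCGG), SP/KLF and NRF1 matches.
ZBTB33, chrX:120250692-120250811, plus strand: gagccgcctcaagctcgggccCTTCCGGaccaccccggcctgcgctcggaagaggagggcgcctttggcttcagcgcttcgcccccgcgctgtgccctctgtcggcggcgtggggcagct
ZNF143, chr11:9460892-9461011, plus strand: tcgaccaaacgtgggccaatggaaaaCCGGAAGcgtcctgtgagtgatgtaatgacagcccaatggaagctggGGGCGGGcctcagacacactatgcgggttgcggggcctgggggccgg
ZNF778, chr16:89217583-89217702, plus strand: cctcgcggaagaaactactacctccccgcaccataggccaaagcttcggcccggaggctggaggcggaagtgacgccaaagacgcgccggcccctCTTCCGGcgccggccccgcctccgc
ZNF664, chr12:123973095-123973214, plus strand: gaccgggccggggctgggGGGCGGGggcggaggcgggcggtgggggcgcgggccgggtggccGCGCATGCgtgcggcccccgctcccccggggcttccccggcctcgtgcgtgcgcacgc
ZNF768, chr16:30526567-30526686, minus strand: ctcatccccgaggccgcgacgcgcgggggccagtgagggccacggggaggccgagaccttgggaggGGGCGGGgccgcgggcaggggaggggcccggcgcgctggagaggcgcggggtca
ZNF785, chr16:30585698-30585817, minus strand: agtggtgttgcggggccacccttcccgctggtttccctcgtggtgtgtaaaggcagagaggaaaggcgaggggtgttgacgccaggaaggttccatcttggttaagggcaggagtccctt
The ETS match lay 99, 94 and 25 bases before the start in ZBTB33, ZNF143 and ZNF778. ZNF664 and ZNF768 held SP/KLF matches and no ETS match in the window. The ETS match of ZNF785 lay upstream of the shown bases, which held none of these cores.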

How the data were processed

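The authors deposited 1 table with a signal value per gene and library, namely normalized counts, beside group means, log2 fold changes and p-values of their own, which served here only to show its limits (lowest absolute log2 fold change 1.0, highest adjusted p-value 0.04997). Within each library the values were multiples of what 1 read is worth, which gave back whole reads for 100% of them (tolerance 0.02). The submitters' processing notes name cutadapt 1.9, HISAT2 2.0.4, UMI-tools, StringTie 1.3.4d, DESeq2 and edgeR, and a mouse build, which the human gene identifiers go against. Labels and methods describe different library kits, and strand use in counting is not given in the sources used here. GENCODE 29 matched 5681 of 5681 genes.

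Genes that reached 1 normalized count in 3 or more libraries were fitted on log2(value + 1) with the trend method of limma 3.58.1 (R 4.3.3), with Benjamini-Hochberg adjustment over all genes tested. This scale understates changes of low genes. The script was tested on simulated data. The plan took protein classes from RefSeq proteins, and translated GENCODE coding sequences were used instead. A KRAB box was called at 7 of 10 and a SCAN domain at 11 of 18 scored positions, thresholds set after the scores were seen. Values per kb used the gene length of the table.

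Named were, per class, the 3 highest and 3 lowest log2 fold changes (mean at least 10, no overlap), the 10 highest means, members with textbook roles and clusters within 200 kb. The members, the 6 gene lists and the motifs were chosen with earlier results of these data known. Alternatives were median-of-ratios scaling, an ordinary linear model, edgeR 4.0.16 and DESeq2 1.42.0 on recovered reads, a pseudocount of 0.1, no filter, a mean of at least 5, and each library left out in turn. A list of 20 deadenylation genes had 6 in the table, all lower (median log2 fold change −1.68, beside 57.1% lower and −1.11 for the protein coding genes of the table). Of 53 zinc finger genes with textbook roles, 13 were members, 7 higher and 6 lower. One gene was taken out of the BTB corepressor list before counting and is not reported here.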

Additional observations from a re-analysis of the deposited data

How the results depend on the processing

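Median-of-ratios scaling over the table moved the results most. Such scaling takes the typical listed gene as unchanged, which genes listed for differing need not meet. The median over all genes rose by 0.71 on the log2 scale, and the members' median moved from −1.02 to −0.31. It left 18 members called lower against 44, of which 26 lost the call, with all 39 higher calls kept. Of the 40 named genes, 13 lost their call with it, and all 13 kept their direction. Leaving out 1 library gave 36 to 38 members higher, 41 to 43 lower and a median from −1.04 to −0.91. With the ordinary linear model, edgeR, DESeq2, the pseudocount of 0.1, no filter and the mean of at least 5, the counts were 37 to 40 higher and 43 to 44 lower. No value reversed under any of these alternatives. No paired analysis was possible because the groups share no replicate numbers (1 to 3 against 4 to 6). The table holds only genes past its own limits, so members that changed less, and the share of the family that changed, were not analysed here. Members under about 10 normalized counts rest on few reads, and their folds depend on the pseudocount. Groups of 3 libraries were not tested for outlying values.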
